A study of Macaca mulatta with 136 samples.

Results

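Gene expression in RPE/choroid, a sheet of retinal pigment epithelium (RPE) and its underlying vascular choroid, was compared between the fovea and the periphery (the temporal punch, by the study's methods) of the same eyes. The comparison used 8 of the 32 libraries of the study, namely the 4 RPE-Choroid fovea libraries and the 4 RPE-Choroid periphery libraries, chosen by their labelled tissue and location. The RNA came from post-mortem eyes of 2 adult rhesus macaques (Macaca mulatta), RM03 and RM04, aged 13 and 18 years, and the sources used here do not say which animal was which age. Punches of 2 mm were taken from the right (OD) and left (OS) eye of each animal, so each location had 4 eyes but only 2 animals, and the fellow eyes of an animal are not independent animals. Poly-A selected RNA was sequenced, and each punch mixed pigment epithelium, vessels, melanocytes, fibroblasts, nerves and immune cells. In such bulk samples, fewer cells of a type and less RNA per cell cannot be told apart.

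The retinal pigment epithelium is a pigmented monolayer that regenerates visual chromophore, takes up shed outer segments and moves water, ions, glucose and lactate between the photoreceptors and the blood. It rests on Bruch's membrane, a layered matrix over the choriocapillaris, the fenestrated capillary bed of the choroid. Deeper choroid holds arteries with smooth muscle, veins, stromal melanocytes and fibroblasts, macrophages, and nerves with Schwann cells. The fovea is the centre of sharp vision, and the macula around it is where age-related macular degeneration causes its main damage.

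The fovea libraries held 45212889 to 57232261 estimated counts and the periphery libraries 62751376 to 69034355. Values below are CPM, estimated counts scaled by TMM to a common library size, and those of 4 libraries are given in the order RM03 OD, RM03 OS, RM04 OD, RM04 OS. Transcripts that define the pigment epithelium were present in all 8 libraries. RPE65, the isomerase of the visual cycle, had 4850.4, 3196, 7961 and 7908 CPM at the fovea and 4313, 463, 2516 and 5905 CPM at the periphery. The RM03 OS periphery library was the lowest of all 8, and the 16 measured genes of an RPE identity list summed to 3636 CPM there against 10437 to 23628 CPM in the other 7 libraries. Retina carried over into the RPE/choroid was measured as the median, over 9 rod genes, of the level in a library relative to the retina library of the same punch. It was 0.785%, 0.463%, 10.1% and 1.80% at the fovea and 4.0%, 0.443%, 0.906% and 2.87% at the periphery. By rod genes the RM04 OD fovea library stood apart with the highest share. A cone list, of which 10 genes could be used at the fovea and 9 at the periphery, gave 1.18%, 1.53%, 4.61% and 1.57% at the fovea and 4.20%, 0.837%, 1.22% and 2.30% at the periphery. Inner retinal genes, of which 13 to 16 could be used, gave 2.53%, 2.32%, 2.13% and 1.52% at the fovea and 11.1%, 11.2%, 8.76% and 5.43% at the periphery. By these genes RM04 OD did not stand apart at the fovea, and every periphery library was above every fovea library. Single inner genes reached up to 607% of their retina level. The cause was not tested. Retina share below means the rod-based value unless stated. The share by inner retinal genes was larger in every periphery library, and peripheral amounts from retina given below would be larger by it. All 4 periphery libraries ran on 1 flow cell that held no other location, and the effects of location and flow cell cannot be told apart.

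**Figure D1:**
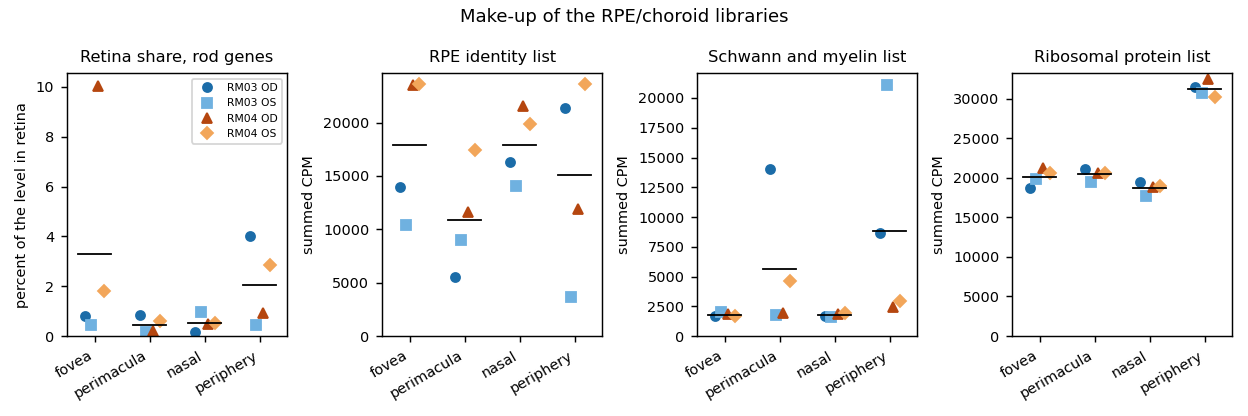
Retina share by rod genes (percent of the level in the retina of the same punch) and summed CPM of the RPE identity, Schwann and myelin, and ribosomal protein lists, in each RPE/choroid library at 4 locations. Points are eyes and black lines are means of 4 libraries. The RM04 OD fovea library has the highest retina share at 10.1%, the RM03 OS periphery library the lowest RPE sum at 3636 CPM, and all 4 periphery libraries the highest ribosomal protein sums.

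Of 15674 genes tested with edgeR's quasi-likelihood test, 6911 (44.1%) differed between fovea and periphery at a Benjamini-Hochberg adjusted p under 0.05. Of these, 3317 (21.2% of the genes tested) were higher at the fovea and 3594 (22.9%) higher at the periphery, and 1941 changed by more than 1 on the log2 scale, 849 toward the fovea and 1092 toward the periphery. The change went the same way in all 4 eyes for 6382 of the genes called (92.4%). The 4 fovea values did not overlap the 4 periphery values for 4941 genes (31.5% of those tested). All log2 fold changes below are fovea over periphery, so that a positive value is higher at the fovea, and the median over all genes tested was -0.06. With so large a share of genes called, the count for a gene list has to be read beside these percentages.

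**Figure D2:**
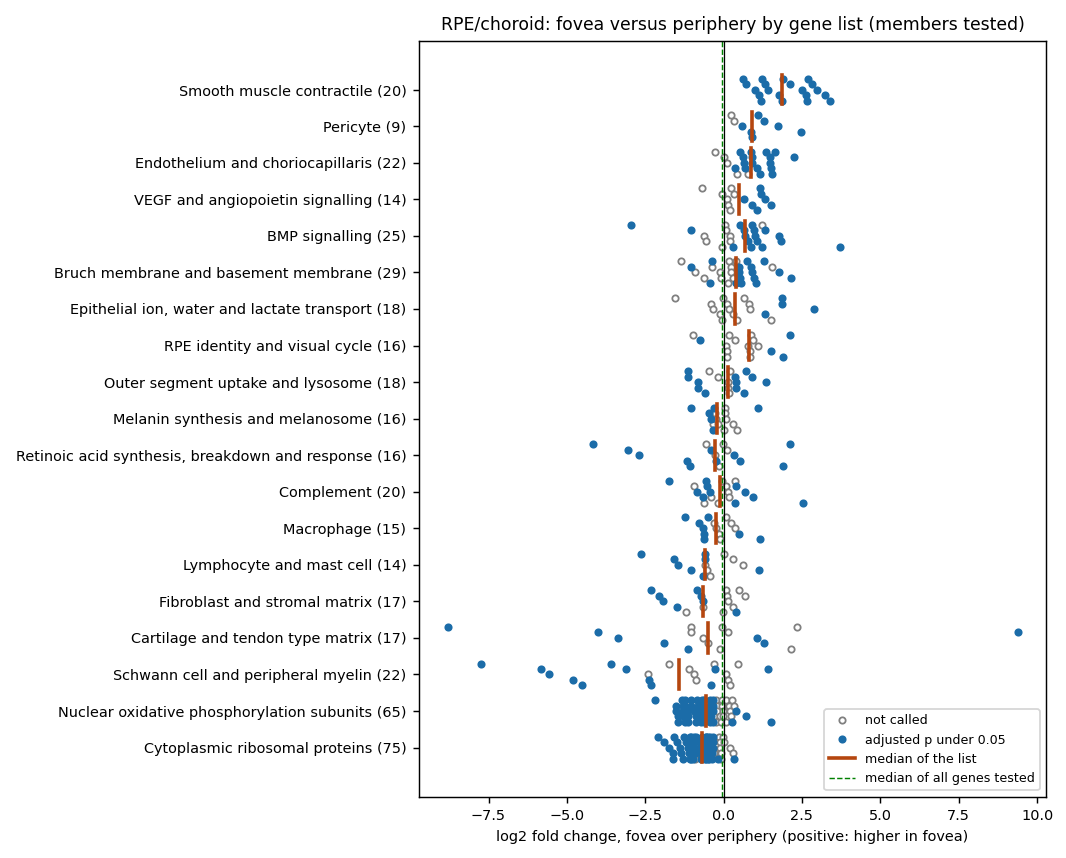
Log2 fold change (fovea over periphery) of each tested member of 19 gene lists, with the number of members in brackets. Filled points passed an adjusted p of 0.05, open points did not, orange bars are list medians and the dashed line is the median of all genes tested, at -0.06. The outermost points, ACAN and COL2A1, have levels near 0 at 1 location, so their fitted values are no measure of size, and the smooth muscle list sits wholly to the right with a median of 1.88, and the ribosomal protein list mostly to the left with a median of -0.67.

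Contractile genes of smooth muscle were higher at the fovea, and bulk punches do not assign them to vessels. All 20 members tested of a contractile list rose toward the fovea, against 21.2% of all genes tested, with a median log2 fold change of 1.88 and a range that began at 0.62. In 17 of the 20 the fovea and periphery libraries did not overlap, against 31.5% of all genes. MYH11, the smooth muscle myosin heavy chain, had 2684, 3915, 2838 and 2212 CPM at the fovea and 179.5, 532, 355 and 65.5 CPM at the periphery. Every fovea library was above every periphery library, and the log2 fold change was 3.39 ± 0.50 (SE), adjusted p = 3.17e-04, n = 4 per location. The lowest periphery values of MYH11 were in RM04 OS and RM03 OD. ACTA2, smooth muscle actin, had 2518, 2880.3, 2384 and 1961 CPM at the fovea and 269, 668, 489 and 155 CPM at the periphery, again without overlap (log2 fold change 2.64 ± 0.35 (SE), adjusted p = 1.69e-04).

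Other parts of the contractile machinery followed the same order of locations. CNN1, calponin, averaged 142 ± 40.6 CPM (SD, n = 4) at the fovea and 18.03 ± 15.8 at the periphery, a 7.92-fold difference (adjusted p = 0.00212). CASQ2, a calcium store protein of muscle, was 9.48-fold higher at the fovea and LMOD1, which nucleates actin filaments, 6.35-fold higher. MYOCD, the coactivator that drives the smooth muscle gene programme, had 18.1, 22.5, 20.99 and 19.5 CPM at the fovea and 2.48, 4.66, 2.81 and 2.67 CPM at the periphery (log2 fold change 2.68 ± 0.24 (SE), adjusted p = 1.34e-05). The intermediate filament gene DES and the tropomyosin gene TPM1 changed by 2.50 and 1.90. The smallest change of the list was that of SMTN, smoothelin, at 0.62 ± 0.21 (SE), and its call was lost without the RM04 OD fovea library (adjusted p = 0.0816), which left 19 of the 20. It was also lost with the eye as a replicate block (adjusted p = 0.0525). In the retina of the same punches the list had a median change of -0.11.

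Genes of pericytes, the mural cells of small vessels, and of the endothelium moved the same way. Of 9 pericyte genes tested, 7 were higher at the fovea and none at the periphery, against 21.2% and 22.9% of all genes. Their median was 0.89, and 4 of the 9 were called without the RM04 OS eye. MCAM, an adhesion molecule of mural and endothelial cells, had 645, 796, 469 and 535 CPM at the fovea and 83.98, 153, 131 and 64.98 CPM at the periphery (log2 fold change 2.47 ± 0.23 (SE), adjusted p = 2.09e-05). PDGFRB, the receptor by which mural cells respond to endothelial PDGF, was 1.81-fold higher at the fovea (adjusted p = 5.89e-05) and NOTCH3, a mural cell receptor, 1.85-fold higher (adjusted p = 9.58e-04). RGS5, also a pericyte gene, did not pass the test, with 434, 501, 629.8 and 636 CPM at the fovea and 265, 535, 615 and 459.9 CPM at the periphery. Its values overlapped, its log2 fold change was 0.23 ± 0.18 (SE), and it passed without the RM03 OS periphery library (log2 fold change 0.43, adjusted p = 0.0407).

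Of 22 endothelial and choriocapillaris genes tested, 17 were higher at the fovea and none at the periphery, against 21.2% and 22.9% of all genes. Without the RM03 OS eye or its periphery library 1 was higher at the periphery. The median of the list was 0.88. PECAM1, the endothelial adhesion molecule CD31, had 384, 484, 488 and 396 CPM at the fovea and 126, 178, 167 and 126 CPM at the periphery (log2 fold change 1.55 ± 0.14 (SE), adjusted p = 1.33e-05). ENG, a co-receptor for TGF-beta and BMP ligands, had 615, 857, 539 and 635 CPM and 215, 209, 229 and 195 CPM at the same locations (log2 fold change 1.62 ± 0.14 (SE), adjusted p = 1.08e-05). Neither gene overlapped between locations. SOX17, a transcription factor of arterial endothelium, showed the largest change of the list, from 3.45 ± 1.10 CPM (SD, n = 4) at the periphery to 16.8 ± 5.06 CPM at the fovea (adjusted p = 7.36e-05). EMCN, a sialomucin of capillary and venous endothelium, and TEK, the angiopoietin receptor, were 2.78-fold and 2.08-fold higher at the fovea. VWF, stored in endothelial granules, differed less, at 0.51 ± 0.13 (SE) (adjusted p = 0.00708), and its fovea and periphery values overlapped. CA4, a carbonic anhydrase of the choriocapillaris whose symbol several entries carry, did not pass, at 0.42 ± 0.16 (SE) (adjusted p = 0.0536). TIE1, an orphan receptor of endothelium, was at 47.7, 60.1, 61.3 and 70.6 CPM at the fovea and 48.2, 50.9, 60.3 and 61.7 CPM at the periphery and was not called (log2 fold change 0.11 ± 0.10 (SE)).

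Of 14 VEGF and angiopoietin signalling genes, 7 were higher at the fovea and none at the periphery, against 21.2% and 22.9% of all genes. Their median was 0.49. VEGFA, the ligand that keeps the choriocapillaris open and drives neovascular disease, had 228, 209.8, 453 and 463 CPM at the fovea and 131, 47.6, 178 and 179.7 CPM at the periphery. The locations did not overlap, RM04 was above RM03 at the fovea, and the lowest value was that of RM03 OS at the periphery (log2 fold change 1.32 ± 0.28 (SE), adjusted p = 0.00285). Its receptors FLT1 and KDR were 2.83-fold and 1.86-fold higher at the fovea (adjusted p = 2.10e-05 and 0.00102), and the co-receptor NRP1 1.56-fold (adjusted p = 0.00114).

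**Figure D3:**
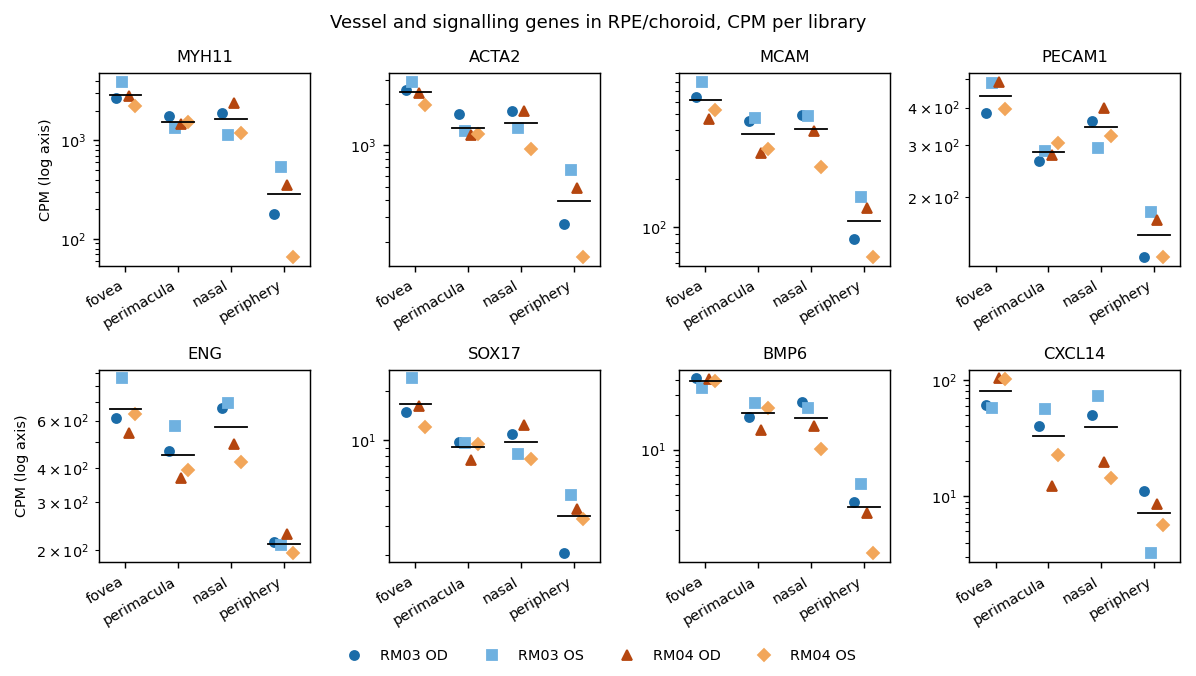
CPM (log axis) of 8 smooth muscle, vessel and signalling genes in each RPE/choroid library at 4 locations. Points are eyes and black lines are means of 4 libraries. In all 8 panels every fovea library lies above every periphery library, and perimacula and nasal means lie between those of the fovea and the periphery.

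BMP signalling is a branch of the TGF-beta family that acts through SMAD proteins and induces the ID genes. Of 25 of its genes tested, 15 were higher at the fovea and 2 at the periphery, against 21.2% and 22.9% of all genes. Their median was 0.67. BMP6, a ligand, showed the largest change among the genes named by size at the fovea. It had 41.7, 34.3, 41.02 and 39.7 CPM at the fovea and 3.54, 5.02, 2.84 and 1.25 CPM at the periphery, a narrow range within each location and no overlap (log2 fold change 3.70 ± 0.32 (SE), adjusted p = 1.27e-05). SMAD6, an inhibitory SMAD that BMP signalling induces, had 28.3, 30.2, 30.5 and 36.3 CPM at the fovea and 8.58, 7.87, 11.8 and 7.07 CPM at the periphery (log2 fold change 1.82 ± 0.15 (SE), adjusted p = 8.62e-06). SMAD9, a receptor-activated SMAD, was 3.41-fold higher at the fovea, with RM03 above RM04 there (31.1, 33.3, 11.3 and 14.8 CPM). ID1 and ID3, transcriptional targets of the pathway, were 2.50-fold and 2.32-fold higher at the fovea (adjusted p = 2.39e-04 and 0.00384), and ID4 was 2.04-fold higher at the periphery (adjusted p = 7.50e-05). The ligand BMP4 changed by 0.52 ± 0.18 (SE) (adjusted p = 0.0418), a call that was lost with the eye as a replicate block (adjusted p = 0.0568) and without the RM04 OD fovea library (adjusted p = 0.0821) or the RM03 OS periphery library (adjusted p = 0.0919). The antagonist GREM1 was also called higher at the periphery, at a low level of 0.138, 0, 0.388 and 0.159 CPM at the fovea and 1.60, 0.434, 1.33 and 0.679 CPM at the periphery (adjusted p = 0.0316), and the call was lost when any eye was left out.

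Chemokine and receptor genes were called at near the share of all genes (48% against 44.1%), 6 of 25 higher at the fovea and 6 at the periphery. Over other settings of the processing these counts ranged from 4 to 7 and from 3 to 8. CXCL14 had 60.7, 57.1, 103 and 102 CPM at the fovea and 11.2, 3.22, 8.59 and 5.64 CPM at the periphery (log2 fold change 3.52 ± 0.52 (SE), adjusted p = 3.47e-04). CCL26, an eosinophil attractant, had the reverse order, with 52.2, 51.4, 115 and 91.9 CPM at the fovea and 375, 403, 458 and 427 CPM at the periphery (log2 fold change -2.52 ± 0.18 (SE), adjusted p = 4.33e-06). For both genes the locations were separate in every eye. CXCL12, which attracts leukocytes through CXCR4, was 2.27-fold higher at the fovea (adjusted p = 1.97e-04).

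Of 35 genes of the Wnt pathway tested, 9 were higher at the fovea and 6 at the periphery, with a median of -0.19. Their called share of 42.9% was near the 44.1% of all genes. The members with the largest changes were secreted antagonists higher at the periphery. SFRP4 had 19.8, 5.69, 24.7 and 11.7 CPM at the fovea and 227, 741, 416 and 356 CPM at the periphery (log2 fold change -4.86 ± 0.93 (SE), adjusted p = 0.00168). WIF1 had 8.39, 8.49, 1.96 and 3.25 CPM and 79.9, 9.14, 28.99 and 85.4 CPM at the same locations, and the RM03 OS periphery library came close to the fovea values (log2 fold change -3.52 ± 0.71 (SE), adjusted p = 0.00233). At the rod-based share retina would supply 44.03% of the peripheral level of WIF1 and more than its foveal level. A supply above the level seen is impossible, so that share is too high for WIF1 at the fovea. The WIF1 call was lost without the 3 libraries over 2% retina share (adjusted p = 0.0571). These were RM04 OD at the fovea, and RM03 OD and RM04 OS at the periphery. Not all antagonists were on that side, since FRZB was 1.91-fold higher at the fovea (adjusted p = 0.00117), as was LEF1, a transcription factor of the pathway, at 3.24-fold (adjusted p = 4.93e-05).

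The pigment epithelium itself gave a mixed picture. Of 16 genes of RPE identity and the visual cycle, 3 were higher at the fovea, 1 at the periphery and 12 were not called. The called share was 25%, against 44.1% of all genes. A positive log2 fold change was seen in 14 of the 16, and the list median was 0.80. RPE65, whose values are given above, changed by 0.83 ± 0.53 (SE) (adjusted p = 0.228) and LRAT, the acyltransferase that stores retinol as ester, by 0.86 ± 0.53 (SE) (adjusted p = 0.21). Values of RPE65 at the fovea and the periphery overlapped. Both genes were called without the 3 libraries over 2% retina share (adjusted p = 0.00455 and 0.00422). The retinaldehyde-binding protein gene RLBP1 had 1516, 1197, 2928 and 2968 CPM at the fovea and 2475, 377, 1645 and 3105 CPM at the periphery. Its log2 fold change of 0.11 ± 0.45 (SE) turned to -0.19 without the RM03 OS periphery library. TTR, the thyroid hormone and retinol carrier, had 2247, 1789, 3703 and 3474 CPM at the fovea and 8324, 1197, 3942 and 7647 CPM at the periphery. It was not called (log2 fold change -0.97 ± 0.46 (SE), adjusted p = 0.107) but was higher at the periphery without the RM03 OS periphery library (-1.27, adjusted p = 0.00793). SERPINF1, which encodes the anti-angiogenic factor PEDF, was 1.68-fold higher at the periphery (adjusted p = 0.00235).

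The count for this list depended on which libraries entered. Without the 3 libraries over 2% retina share 13 of the 16 were called higher at the fovea, with a median of 1.57. The 2 periphery libraries among them had the highest RPE sums of their location, at 21338 and 23585 CPM, and their removal left 3636 and 11920 CPM. Without the RM04 OD fovea library alone 2 were higher at the fovea, and without the RM03 OS periphery library alone 3 were, with a median of 0.47. Without 1 eye at a time the count lay between 1 and 5, and with the eye as a replicate block it was 5. The RPE sums of 3 peripheral libraries lay within the foveal range of 10437 to 23628 CPM, and that of RM03 OS was below it.

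Genes of retinoid uptake and processing were among those called. STRA6, the membrane receptor for retinol-binding protein, had 772, 640.3, 1073 and 1167 CPM at the fovea and 438, 58.4, 109.7 and 204 CPM at the periphery (log2 fold change 2.12 ± 0.57 (SE), adjusted p = 0.0118). RDH10, a retinol dehydrogenase, had 209.6, 172, 439 and 455 CPM and 101, 29.7, 65.4 and 121 CPM at the same locations (log2 fold change 1.89 ± 0.39 (SE), adjusted p = 0.00261). Neither overlapped, and both kept their call without the RM03 OS periphery library (adjusted p = 0.0152 and 0.00477), although STRA6 lost it without either RM04 eye. CRX, a homeobox factor of photoreceptors and RPE, was the third RPE identity gene called higher at the fovea (1.51, adjusted p = 0.0362). Of 16 genes of retinoic acid synthesis, breakdown and response, including STRA6 and RDH10, 4 were higher at the fovea and 7 at the periphery. The called share was 68.8%, against 44.1% of all genes. Without the RM04 OS eye the counts were 2 and 5. ALDH1A3, which makes retinoic acid, had 42.5, 46.9, 92.5 and 80.5 CPM at the fovea and 559, 167, 533 and 891 CPM at the periphery, an 8.19-fold difference (adjusted p = 6.74e-05). ALDH1A1, a related dehydrogenase, was 2.09-fold higher at the periphery (adjusted p = 3.28e-05). CRABP1, a cellular retinoic acid-binding protein, was at 0.241, 0.321, 0.323 and 0.774 CPM at the fovea and 8.08, 2.54, 8.70 and 9.01 CPM at the periphery (adjusted p = 1.07e-04). At the rod-based share retina would supply 44.9% of its peripheral level and more than its foveal level. That share is therefore too high for CRABP1 at the fovea. CRABP2, its relative, was also higher at the periphery, with 4.97, 10.4, 49.2 and 36.04 CPM against 1.87, 1.35, 5.86 and 3.48 CPM (adjusted p = 0.00215). RM03 and RM04 differed in CRABP2 at the periphery, and the RM03 OD value overlapped the foveal ones.

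Transport genes of the epithelium were called higher at the fovea in 4 of 18 cases (22.2%, near the 21.2% of all genes) and in none at the periphery, with a median of 0.37. Without the RM03 OD eye 7 were higher at the fovea and 1 at the periphery. CA12, a membrane carbonic anhydrase, had 128, 113, 146 and 168 CPM at the fovea and 22.3, 8.21, 20.8 and 23.4 CPM at the periphery (log2 fold change 2.90 ± 0.28 (SE), adjusted p = 2.22e-05). SLC16A1, the lactate transporter MCT1, had 244, 180.4, 401 and 384 CPM and 118, 16.8, 43.5 and 139 CPM (log2 fold change 1.87 ± 0.54 (SE), adjusted p = 0.0166). ATP1B2, a sodium pump subunit, and SLC6A6, the taurine transporter, were 3.63-fold and 2.50-fold higher at the fovea. No fovea library overlapped a periphery library in these 4 genes, and in SLC16A1, CA12 and SLC6A6 the RM03 OS periphery library was the lowest, as it was for RPE65. SLC16A1 was not called without the RM04 OD eye. The count was 8 of 18 without the 3 libraries over 2% retina share. SLCO1C1, a carrier of thyroxine, was also among the genes of largest change, with 185, 117, 249 and 264 CPM at the fovea and 43.8, 4.41, 8.38 and 18.5 CPM at the periphery (log2 fold change 3.37 ± 0.67 (SE), adjusted p = 0.00215).

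Genes of outer segment uptake and the lysosome were called in both directions, 7 of 18 higher at the fovea and 5 at the periphery. The called share was 66.7%, against 44.1% of all genes. ITGAV, the integrin subunit that tethers outer segments, was 2.58-fold higher at the fovea (adjusted p = 0.00507) and the lysosomal protease gene CTSD 1.87-fold higher (adjusted p = 0.0081). CD36, a scavenger receptor, was 2.22-fold higher at the periphery (adjusted p = 0.00725). Without the 3 libraries over 2% retina share the counts were 4 and 3, without the RM04 OD eye 3 and 3, without the RM04 OS eye 3 and 2, and CD36 was no longer called (adjusted p = 0.0964), nor without either RM04 eye, while CTSD was not called without the RM04 OD eye. Of 28 epithelial junction genes, 8 were higher at the fovea and 4 at the periphery (42.9% called, against 44.1% of all genes). Without either RM04 eye 5 were higher at the fovea, and at the periphery 1 was without the RM03 OD or the RM04 OS eye and 2 without the RM03 OS eye. OCLN and MARVELD2, tight junction proteins of a common family, were 2.16-fold and 2.75-fold higher at the fovea (adjusted p = 1.14e-04 and 2.88e-04), without overlap.

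Most pigment genes were not called, and those called were mainly higher at the periphery. Of 16 genes of melanin synthesis and the melanosome, 5 were higher at the periphery and 1 at the fovea (37.5% called, against 44.1% of all genes). PMEL, the fibril protein of the melanosome, had 3722, 4132, 2195 and 2369.5 CPM at the fovea and 7597, 6306, 5270.2 and 5436 CPM at the periphery (log2 fold change -1.03 ± 0.11 (SE), adjusted p = 4.96e-05). TYRP1 was 1.31-fold higher at the periphery (adjusted p = 0.00506), and both genes were separate between locations. TYR, the rate-limiting enzyme of melanin synthesis, was not called, with 607, 622, 579 and 592 CPM at the fovea and 597, 484, 625 and 609 CPM at the periphery. DCT was the exception, with 31.7, 25.4, 127 and 127 CPM at the fovea and 22.8, 9.40, 51.3 and 46.6 CPM at the periphery, and RM04 was above RM03 at both locations (log2 fold change 1.09 ± 0.25 (SE), adjusted p = 0.00487). With the 3 libraries over 2% retina share left out, 3 pigment genes were higher at the fovea and 2 at the periphery, and without 1 library or eye the peripheral count lay between 2 and 7. DCT was not called without the RM04 OS eye. Of 7 genes of choroidal melanocytes 2 were higher at the fovea (28.6% called, against 44.1% of all genes), and DCT was 1 of them.

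**Figure D4:**
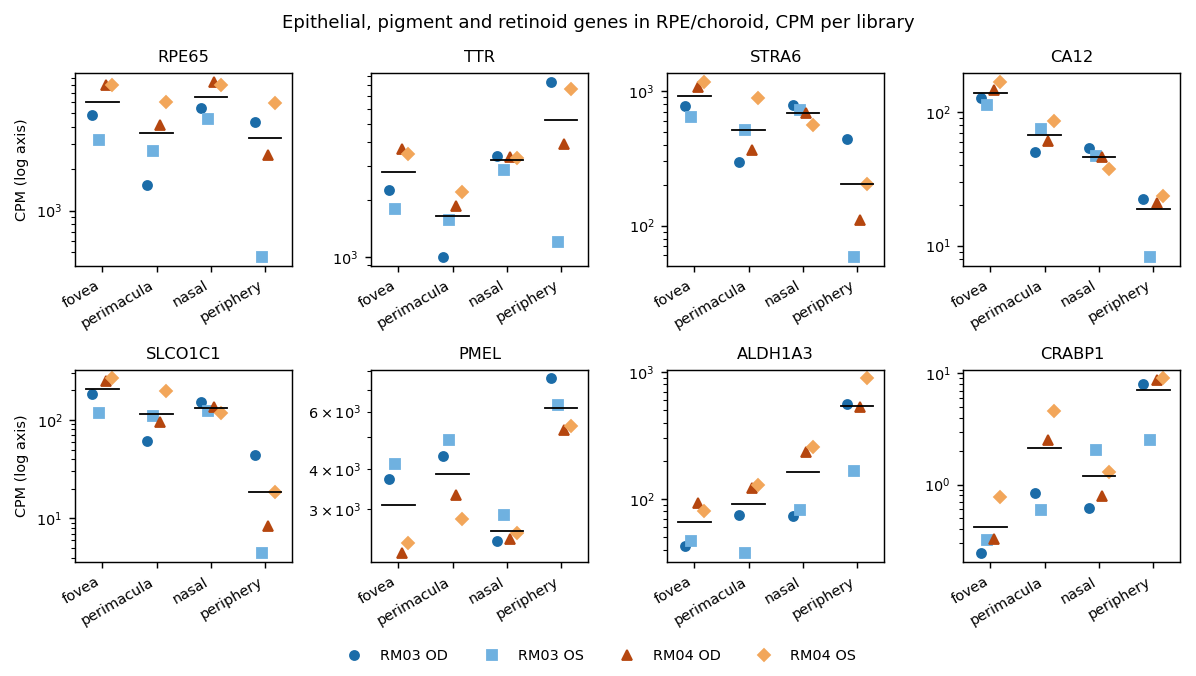
CPM (log axis) of 8 epithelial, pigment and retinoid genes in each RPE/choroid library at 4 locations. Points are eyes and black lines are means of 4 libraries. STRA6, CA12 and SLCO1C1 are higher in every fovea library than in any periphery library, PMEL, ALDH1A3 and CRABP1 are higher in every periphery library, and RPE65 and TTR overlap.

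Matrix of Bruch's membrane and basement membranes was higher at the fovea in 13 of 29 genes and at the periphery in 3. The shares over all genes tested were 21.2% and 22.9%, and the list median was 0.38. TIMP3, the metalloproteinase inhibitor deposited in Bruch's membrane and mutated in Sorsby fundus dystrophy, had 4092, 4333, 5489.8 and 5361 CPM at the fovea and 2444, 1781, 1888 and 3187 CPM at the periphery (log2 fold change 1.04 ± 0.19 (SE), adjusted p = 0.00139). HMCN1, a large matrix protein, and LOXL1, a crosslinker of elastin, were 4.45-fold and 3.39-fold higher at the fovea (adjusted p = 1.21e-04 and 6.00e-05). All fovea libraries were above all periphery libraries in these 3 genes. NID1, a basement membrane linker, was 2.05-fold higher at the periphery (adjusted p = 7.17e-04). Without the 3 libraries over 2% retina share 8 were higher at the fovea and 4 at the periphery, and without the RM04 OD or the RM04 OS eye 7 and 8 were higher at the fovea. The peripheral count was 1 without the RM03 OD or the RM04 OS eye. SULF1, which removes sulfate from heparan sulfate chains of the matrix, had 1768, 1766, 2536 and 2662 CPM at the fovea and 545, 448, 529.9 and 720.4 CPM at the periphery (log2 fold change 1.94 ± 0.17 (SE), adjusted p = 1.34e-05), and the proteoglycan gene BGN was 3.08-fold higher at the fovea (adjusted p = 1.59e-05).

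Complement genes were called in 55% of cases, against 44.1% of all genes, 5 of 20 higher at the fovea and 6 at the periphery. CFD, the protease that activates the alternative pathway, had 124, 167, 46.5 and 91.1 CPM at the fovea and 19.9, 14.5, 22.6 and 13.2 CPM at the periphery (log2 fold change 2.52 ± 0.30 (SE), adjusted p = 8.06e-05). C7, a part of the membrane attack complex, went the other way at -1.73 ± 0.29 (SE) (adjusted p = 8.40e-04). The locations were separate in both genes, whereas C3, the central component, was not called (0.08 ± 0.20 (SE)). Of 16 genes of inherited and age-related macular disease, 6 were higher at the fovea and 1, TYRP1, at the periphery (43.8% called, against 44.1% of all genes). The counts were 5 and 4 without the RM04 OD eye, and 2 were higher at the periphery without the RM03 OS eye, the RM04 OD fovea library or the RM03 OS periphery library. ABCA4, mutated in Stargardt disease, was not called, with 282, 262, 504 and 446 CPM at the fovea and 285, 92.5, 130.2 and 232 CPM at the periphery (log2 fold change 0.94 ± 0.38 (SE), adjusted p = 0.0677), and with the eye as a replicate block it was (adjusted p = 0.0467). At the rod-based share retina would supply 9.12% of its foveal level and 31.8% of its peripheral level.

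Peripheral nerve genes were among those most strongly raised at the periphery, and their levels were uneven among the eyes. Of 22 Schwann cell and peripheral myelin genes tested, 11 were higher at the periphery and 1 at the fovea, against 22.9% and 21.2% of all genes, with a median of -1.43. The list summed to 8674, 21105, 2445 and 2972 CPM at the periphery and to between 1644 and 1999 CPM at the fovea. Both RM03 periphery libraries were therefore well above both of RM04. PMP2, a myelin lipid carrier, had 2.84, 2.29, 1.61 and 1.41 CPM at the fovea and 206, 480.2, 13.5 and 41.9 CPM at the periphery (log2 fold change -5.81 ± 1.58 (SE), adjusted p = 0.0121). PRX, which links the myelin sheath to its cytoskeleton, had 10.2, 14.8, 20.4 and 27.3 CPM and 759, 2075, 94.3 and 170.1 CPM (adjusted p = 0.0279). Both were separate between locations, and with the eye as a replicate block PRX was not called (adjusted p = 0.0525). DRP2, which forms a complex with periaxin, averaged 0.667 CPM at the fovea and 200.4 CPM at the periphery (adjusted p = 0.00806).

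PMP2 was not low everywhere outside the periphery. At the perimacula it had 432, 2.10, 3.26 and 135 CPM, so that RM03 OD and RM04 OS were high and their fellow eyes were near the foveal level, and at the nasal location it had between 1.497 and 2.93 CPM. Calls of myelin genes were fragile. Without the RM03 OD eye or the RM04 OS eye 5 of the 22 were called higher at the periphery. PMP2, PRX and SFRP1 were not called without either of these eyes, and DRP2 not without RM03 OD. Without the 3 libraries over 2% retina share 6 were called. Receptors of Schwann cells were divided. ERBB3, the neuregulin receptor, was 1.33-fold higher at the periphery (adjusted p = 0.00284), and NGFR, the low-affinity neurotrophin receptor, was not called, at 0.45 ± 0.18 (SE). GFRA3, a receptor for artemin, was 2.69-fold higher at the fovea (adjusted p = 8.87e-04). MLIP, a lamin-interacting protein, and the Wnt antagonist SFRP1 had the same order of eyes as PMP2 at the periphery. MLIP had 171, 416, 21.6 and 31.2 CPM and SFRP1 165, 399, 10.8 and 21.3 CPM at the periphery against foveal means of 2.29 and 4.19 CPM.

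Of 17 stromal genes tested, 7 were higher at the periphery and 1 at the fovea, against 22.9% and 21.2% of all genes. The other 9 were not called, 7 of the 17 had a positive log2 fold change, and the median was -0.67. Over other settings of the processing 5 to 8 were higher at the periphery and 0 to 3 at the fovea. DCN, the proteoglycan decorin, had 1054, 830.3, 1907 and 1368 CPM at the fovea and 2768, 6502, 5628 and 5838 CPM at the periphery (log2 fold change -2.07 ± 0.36 (SE), adjusted p = 9.07e-04). COL1A2, a chain of type I collagen, was 1.59-fold higher at the periphery (adjusted p = 0.00127), while the partner chain gene COL1A1 was not called (0.11 ± 0.22 (SE)). APOD, a lipocalin of fibroblasts and nerve sheaths, had 424, 528, 2046 and 1917 CPM at the fovea and 3497, 5658, 2901 and 2569 CPM at the periphery. RM03 and RM04 differed at the fovea in APOD, and its call (log2 fold change -1.92 ± 0.64 (SE), adjusted p = 0.0321) was lost with the eye as a replicate block (adjusted p = 0.056) and without the RM03 OS periphery library (adjusted p = 0.0613) or any eye. CAPN6, a calpain without protease activity, had 27.8, 26.5, 78.8 and 60.4 CPM at the fovea and 436, 1024, 852 and 849 CPM at the periphery (log2 fold change -4.19 ± 0.34 (SE), adjusted p = 7.96e-06).

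Cartilage and tendon type matrix went both ways, with 5 of 17 genes higher at the periphery and 3 at the fovea (47.1% called, against 44.1% of all genes). COL9A2, a type IX collagen chain, had 4.39, 4.68, 46.2 and 52.3 CPM at the fovea and 271, 113, 246 and 315 CPM at the periphery (log2 fold change -3.99 ± 0.56 (SE), adjusted p = 2.55e-04). COL2A1, the type II collagen of cartilage and vitreous, was at 0.0344, 0, 0.0215 and 0.0683 CPM at the fovea and 19.05, 2.60, 11.5 and 24.8 CPM at the periphery (adjusted p = 2.71e-05). The share of retina would supply 17.7% of the peripheral level of COL2A1. ACAN, the cartilage proteoglycan aggrecan, had the opposite order at 4.87, 6.14, 2.11 and 2.71 CPM at the fovea, and it was listed at 0 in 3 of the 4 periphery libraries and at 0.0141 CPM in RM04 OD (adjusted p = 4.78e-06). No fold is given for these 2 genes because 1 of the locations rested on a handful of estimated counts. SOX9, a transcription factor of cartilage that the pigment epithelium also uses, was 2.10-fold higher at the fovea (adjusted p = 8.19e-04).

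**Figure D5:**
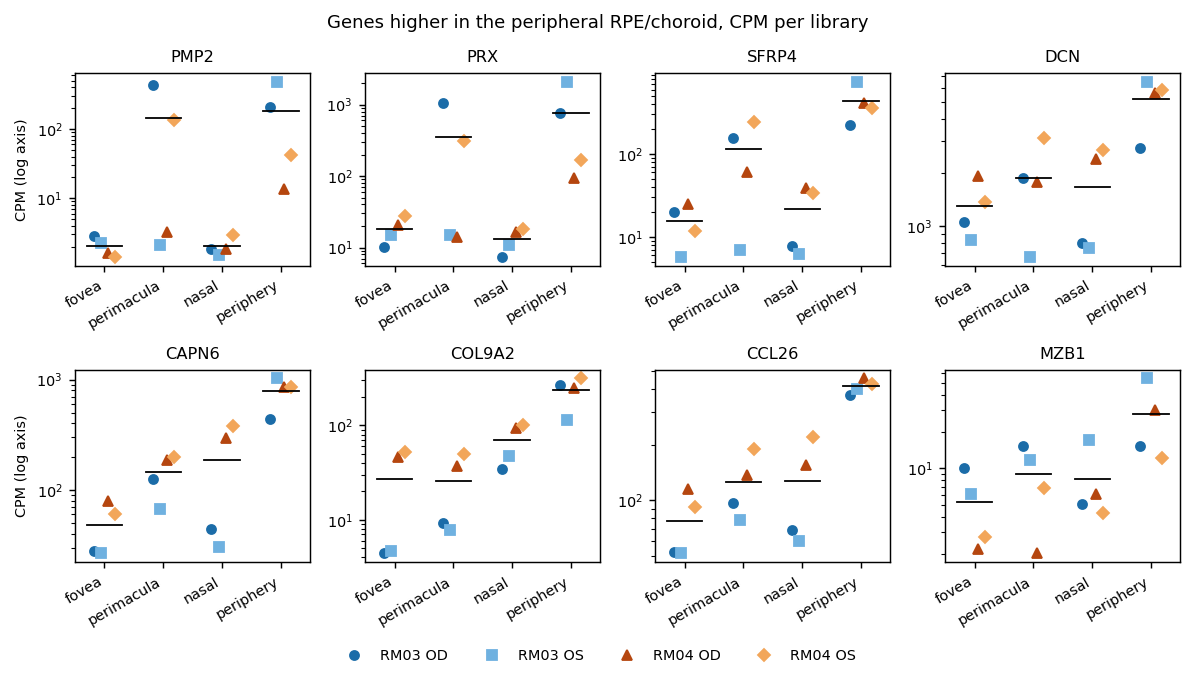
CPM (log axis) of 8 genes with higher peripheral levels in each RPE/choroid library at 4 locations. Points are eyes and black lines are means of 4 libraries. PMP2 and PRX are high in only 2 of the 4 perimacula libraries and differ between RM03 and RM04 at the periphery, while CAPN6 and CCL26 are high in all 4 periphery libraries.

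Immune genes that were called were mainly higher at the periphery. Of 15 macrophage genes, 6 were higher at the periphery and 2 at the fovea, against 22.9% and 21.2% of all genes. Without the animal covariate the counts were 2 and 1. Only AIF1 of the 15 was without overlap between locations, against 31.5% of all genes. The list summed to 1462 to 3300 CPM at the fovea and 2265 to 3065 CPM at the periphery. AIF1, a calcium-binding protein of macrophages and microglia, had 35.7, 33.99, 19.4 and 20.7 CPM at the fovea and 69.9, 68.1, 58.8 and 52.2 CPM at the periphery (log2 fold change -1.23 ± 0.11 (SE), adjusted p = 1.35e-05). CD14, a co-receptor for bacterial lipopolysaccharide, was 1.73-fold higher at the periphery (adjusted p = 1.32e-05), whereas CSF1R, the receptor that macrophages need for survival, was 1.41-fold higher at the fovea (adjusted p = 0.0123), a call lost without the RM03 OD eye. CD163, a scavenger receptor for haemoglobin, was not called, at -0.30 ± 0.15 (SE). At the fovea macrophage genes were higher in RM03 than in RM04, and for CD163 the values were 205, 178, 74.4 and 103 CPM. Of 14 lymphocyte and mast cell genes, 7 were higher at the periphery and 1 at the fovea, against 22.9% and 21.2% of all genes. Without the RM04 OS eye 4 were higher at the periphery. CD3D, part of the T cell receptor complex, had 7.89, 17.6, 18.9 and 24.4 CPM at the fovea and 27.4, 40.8, 69.5 and 51.2 CPM at the periphery (adjusted p = 7.33e-04). MZB1, a protein of antibody-secreting cells, had 9.99, 6.11, 2.20 and 2.73 CPM and 15.3, 54.4, 30.2 and 12.2 CPM (log2 fold change -2.62 ± 0.51 (SE), adjusted p = 0.00192). IGLL5, an immunoglobulin light chain gene whose symbol 3 entries carry, had 5.93, 4.45, 2.73 and 3.80 CPM at the fovea and 6.61, 179, 13.4 and 327 CPM at the periphery, where RM03 OS and RM04 OS held most of it.

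Transcription factors with regional patterns were called in both directions, 12 of 34 higher at the fovea and 8 at the periphery. The called share was 58.8%, against 44.1% of all genes. Without the RM04 OS eye the counts were 8 and 4, and without the RM03 OD eye 10 and 5. NR2F1, an orphan nuclear receptor, had 24.1, 32.3, 24.98 and 24.2 CPM at the fovea and 65.6, 79.2, 60.3 and 53.6 CPM at the periphery (log2 fold change -1.29 ± 0.12 (SE), adjusted p = 1.74e-05). ZFHX4, a homeodomain zinc finger factor, had 16.9, 22.3, 13.8 and 14.3 CPM and 47.9, 77.1, 52.98 and 45.9 CPM (log2 fold change -1.75 ± 0.18 (SE), adjusted p = 3.18e-05), and its relative ZFHX3 had the reverse order (1.43 ± 0.13 (SE), adjusted p = 1.66e-05). Within this family the direction thus differed. IRX1 and IRX2, adjacent Iroquois homeobox genes, were 3.59-fold and 4.002-fold higher at the fovea (adjusted p = 0.00543 and 0.0011), with RM03 above RM04 there (23.3, 29.4, 11.8 and 11.3 CPM for IRX2). IRX1 was not called without the 3 libraries over 2% retina share (adjusted p = 0.0514). TBX3, a T-box repressor of dorsal eye, was 3.39-fold higher at the fovea (adjusted p = 1.06e-04). VEZF1, a zinc finger factor of endothelium, was 1.92-fold higher there (adjusted p = 2.78e-05). PAX6, a factor of the ciliary epithelium and inner retina, had 2.03, 2.39, 8.16 and 3.87 CPM at the fovea and 17.98, 5.99, 13.7 and 20.6 CPM at the periphery (log2 fold change -1.96 ± 0.46 (SE), adjusted p = 0.00593). At the rod-based share retina would supply 34.6% of the peripheral level of PAX6 and more than its foveal level. That share is therefore too high for PAX6 at the fovea. By inner retinal genes the peripheral share was larger (5.43% to 11.2%), so the peripheral figure for PAX6 depends on the genes that set the share. The PAX6 call was lost without the RM03 OD or the RM04 OS eye. OTX1, a homeobox factor of the peripheral optic cup, was at 0.103, 0, 0.689 and 0.341 CPM at the fovea and 2.37, 1.38, 7.53 and 5.43 CPM at the periphery (adjusted p = 4.65e-04).

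Markers of neighbouring tissues bear on these differences. None of 9 rod genes was called, and their median log2 fold change was -2.02, with a summed level of 49.0 to 527 CPM at the fovea and 121 to 908 CPM at the periphery. SAG, rod arrestin, had 7.998, 7.20, 161 and 28.1 CPM at the fovea and 388, 52.2, 92.7 and 286 CPM at the periphery. Without the RM04 OD fovea library 7 of the 9 were called higher at the periphery, with a median of -3.37. Of 10 cone genes, 1 was higher at the fovea, 2 with the eye as a replicate block and 8 with the mean rod level as a covariate. Of 20 inner retinal genes, 3 were higher at the fovea and 7 at the periphery. The peripheral count was 4 without the RM03 OD or the RM04 OD eye, and 3 with the retina share subtracted, with the mean rod level as a covariate or without the 3 libraries over 2% retina share. With the rod-based retina share subtracted from each library 6612 genes were called. Of these, 6352 were among the 6911 genes called before and had the same direction. The larger peripheral share by inner retinal genes was not subtracted. Of 8 skeletal muscle genes, 2 were higher at the periphery, where they summed to 9.75 to 13.5 CPM. Of 8 lens and ciliary body genes, 1 was higher at the fovea and 2 at the periphery, and of 10 genes of intrinsic choroidal neurons and axons, 1 was higher at the periphery, or 2 with the block. Called shares of the cone, inner retinal, skeletal muscle, lens and neuron lists were 10%, 50%, 25%, 37.5% and 10%, against 44.1% of all genes. The part of these tissues in the other results was not tested.

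Housekeeping classes were shifted toward the periphery. Of 75 cytoplasmic ribosomal protein genes, 63 were higher at the periphery and 1 at the fovea, against 22.9% and 21.2% of all genes. Their median was -0.67, and their summed level was 18660 to 21211 CPM at the fovea and 30256 to 32486 CPM at the periphery. RPS18 and RPL23, whose symbols several entries carry, were 2.79-fold and 2.99-fold higher at the periphery. Of 65 nuclear subunits of oxidative phosphorylation, 42 were higher at the periphery and 4 at the fovea, with a median of -0.57. Their called share was 70.8%, against 44.1% of all genes. In retina the same lists had medians of -1.43 and -0.49 between fovea and periphery, and in RPE/choroid they had medians of 0.08 and 0.07 between fovea and nasal location, which shared flow cells. These shifts cannot be told apart from the flow cell. ATP8, a subunit that the mitochondrial genome encodes, had the opposite order, with 7033, 10036, 8603 and 6278 CPM at the fovea and 2679, 3260.3, 2964 and 2295 CPM at the periphery (log2 fold change 1.51 ± 0.19 (SE), adjusted p = 1.30e-04). RPS2, of which 14 entries carry the symbol, contained an entry of 26.6 ± 11.02 CPM (SD, n = 4) at the fovea and 2.87 ± 0.715 at the periphery, and its identity is uncertain.

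Immediate early and stress genes were higher at the fovea in 11 of 23 cases and at the periphery in 2. The shares over all genes tested were 21.2% and 22.9%. Without the RM04 OS eye 7 were higher at the fovea. EGR1, an early growth response factor, had 97.8, 103, 199.6 and 258 CPM at the fovea and 19.3, 30.7, 74.4 and 34.7 CPM at the periphery (log2 fold change 2.03 ± 0.28 (SE), adjusted p = 2.10e-04). The count was also 7 without the 3 libraries over 2% retina share. Of 26 genes of hypoxia and glycolysis, 6 were called in each direction (46.2% called, against 44.1% of all genes). EPAS1 and HIF1A, the oxygen-regulated HIF subunits, were 2.43-fold and 2.11-fold higher at the fovea (adjusted p = 8.53e-06 and 5.61e-06). ADM, a vasodilator peptide that HIF induces, had the reverse order, with 30.98, 37.2, 21.6 and 27.1 CPM at the fovea and 98.6, 108, 80.4 and 64.6 CPM at the periphery (adjusted p = 9.99e-05). No overlap was seen in these 4 genes.

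The remaining genes named for their size or level add other functions. Toward the fovea, APLP2, a relative of the amyloid precursor, ENPP2, which makes lysophosphatidic acid, and FLNA, an actin crosslinker, were 2.15-fold, 3.002-fold and 2.20-fold higher. SLITRK6, a neuronal adhesion receptor, had 31.4, 40.4, 20.04 and 17.7 CPM at the fovea and 6.31, 3.59, 2.36 and 2.38 CPM at the periphery (log2 fold change 2.92 ± 0.19 (SE), adjusted p = 2.25e-06), and the uncharacterized LOC705178 was 7.76-fold higher at the fovea. Toward the periphery, PTGDS, prostaglandin D synthase, had 671, 786, 1514 and 1365 CPM at the fovea and 3218, 2929, 3467 and 4068 CPM at the periphery (log2 fold change -1.75 ± 0.18 (SE), adjusted p = 3.94e-05). APOE, a lipid carrier, TMSB4X, an actin-sequestering peptide, and FTL, the ferritin light chain whose symbol 2 entries carry, were 2.11-fold, 3.55-fold and 2.10-fold higher at the periphery. Each of these genes was separate between locations, and ENPP2 was not called without RM03 OS or either RM04 eye.

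A list of 21 genes was kept here for the study, which names others too. ACTA2 and COL2A1 are in the list, although the study's text does not name them. The study chose genes on these samples, some also by overlap with human single-cell RPE data. Their direction here is therefore not independent evidence. Of the 20 tested, 7 were higher at the fovea, 9 at the periphery and 4 were not called (80% called, against 44.1% of all genes). These counts hold ACTA2 at the fovea and COL2A1 at the periphery. Those called and not described above were S100B, a calcium-binding protein of Schwann cells (-2.37 ± 0.34 (SE), adjusted p = 2.83e-04), SCG5, a secretory granule protein whose symbol 2 entries carry (-2.19 ± 0.49 (SE), adjusted p = 0.00435), SRSF3, a splicing factor (-0.85 ± 0.07 (SE), adjusted p = 6.02e-06), and GNG11, a G protein subunit (-0.55 ± 0.10 (SE), adjusted p = 0.00125), all higher at the periphery. Besides ABCA4, the genes not called were WFDC1 (0.64 ± 0.24 (SE), adjusted p = 0.0536), IVNS1ABP (-0.43 ± 0.20 (SE), adjusted p = 0.106) and VIM (0.13 ± 0.09 (SE), adjusted p = 0.253). These results depart from the study. It reports ABCA4 as differing significantly by location, and WFDC1, IVNS1ABP and VIM as differing in both its macaque and its human single-cell tests. Its macaque test was DESeq2 with p-values corrected by another method (IHW). Over other settings of the processing, DESeq2 among them, 7 to 9 genes of the list were higher at the fovea and 8 to 9 at the periphery. The source of the departure was not tested. FOXI3 was not tested because its counts were too low.

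The perimacula and the nasal location shared flow cells with the fovea, and fewer genes differed between the fovea and either of them than between the fovea and the periphery. Fovea and nasal location differed in 57 of 15789 genes (0.361%; 2449 at an unadjusted p under 0.05), and fovea and perimacula in 7 of 15674 (0.0447%; 1678 unadjusted). The median absolute log2 fold change over all genes was 0.42 against the periphery, 0.16 against the nasal location and 0.14 against the perimacula. These contrasts share the fovea libraries. Mean MYH11 levels were 2912 CPM (fovea), 1528 CPM (perimacula), 1653 CPM (nasal) and 283 CPM (periphery), and the fovea differed by 0.79 from the nasal location (adjusted p = 0.423) and by 0.91 from the perimacula (adjusted p = 0.513). None of the 20 contractile genes was called in either contrast, and their medians were 0.39 and 0.50. CA12 averaged 139, 67.9, 46.2 and 18.7 CPM at the same 4 locations and was called against the nasal location (log2 fold change 1.56, adjusted p = 0.0241). BMP6 averaged 39.2, 20.7, 18.9 and 3.16 CPM, and was called in neither contrast (adjusted p = 0.106 and 0.295). PRRX1, a mesenchymal homeobox factor, was called against the perimacula (log2 fold change -1.72, adjusted p = 0.0349) and against the periphery (-1.48 ± 0.21 (SE), adjusted p = 2.78e-04), with means of 31.9, 105, 65.2 and 83.6 CPM.

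The change between locations was compared between the animals. A test of animal by location called 4 of 15674 genes (0.0255%), with 1932 at an unadjusted p under 0.05, and DESeq2 called 470, with 2 eyes per animal. The 4 genes are named after their values were seen. COCH, a matrix protein, had 19.7, 21.6, 2.56 and 2.34 CPM at the fovea and 1.83, 2.82, 5.93 and 7.41 CPM at the periphery, so that it was higher at the fovea in RM03 and higher at the periphery in RM04 (difference of log2 fold changes 4.62, adjusted p = 0.014). TACR2, a neurokinin receptor, had 2.46, 2.69, 0.904 and 1.36 CPM and 0.857, 0.573, 11.4 and 25.7 CPM, again with opposite directions (5.89, adjusted p = 0.0217). LRRTM3, a synaptic adhesion protein, had 0.0516, 0.0855, 1.46 and 1.23 CPM at the fovea and 3.21, 4.03, 2.54 and 2.41 CPM at the periphery, a larger difference in RM03 (-4.80, adjusted p = 0.0357). LANCL1, whose symbol 2 entries carry, had 23.7, 30.1, 32.7 and 32.4 CPM at the fovea and 0, 0, 11.4 and 13.2 CPM at the periphery, listed at 0 in both RM03 libraries (adjusted p = 3.20e-04).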

How the data were processed

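Poly-A RNA of retina and RPE/choroid from 4 locations in 4 eyes of 2 macaques was sequenced over 136 lane tables for 32 libraries, of which 28 lane tables held the 8 libraries compared here. The authors quantified transcripts with Salmon 0.13 against the macaque transcriptome Mmul_8.0.1 and summarised them per gene with tximport. The deposited column is headed TPM but was read here as estimated counts scaled by transcript length. That reading was inferred from the study's methods, which name length-scaled values, and from sums that differ between lanes, since the file headers do not state it. These were summed over the lanes of a library and rounded to whole numbers.

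Groups came from the labelled tissue and location. Genes were tested with edgeR 4.0.16 (R 4.3.3), using TMM normalization, filterByExpr with a minimum count of 10, a quasi-likelihood fit to the fovea, perimacula and periphery libraries with animal as covariate, and p-values adjusted by Benjamini-Hochberg across the genes tested (threshold 0.05). The nasal comparison came from a fit that also held the nasal libraries. The study itself used DESeq2 with animal as covariate, and DESeq2 1.42.0 was run as an alternative. The standard error is the absolute log2 fold change divided by the square root of F. CPM were scaled over the 16 RPE/choroid libraries. On simulated data of 15559 genes for fovea against periphery, 74% of 200 genes changed by 1.5 (log2) were recovered and 5.1% of the genes called were false. The simulation held no animal or flow cell effect, and its changes had random direction. It therefore gives no false rate for data in which 44.1% of genes were called.

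Same-numbered libraries are the same eye. Deviations of fovea and periphery libraries from their location means correlated by 0.249, 0.362, 0.297 and 0.427 in the 4 eyes. Averaged over all pairs of locations, it was 0.388 in the same eye and 0.384 between fellow eyes, and 0.00082 in the same eye once the animal means, which the model holds, were removed. With fellow eyes of an animal treated as separate samples, p-values measure the spread between eyes and not that of the species. The retina share of a library is the median over rod genes of its CPM relative to the retina of the same punch.

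Genes were named by fixed rules. A first set held the 10 largest changes in each direction among genes over 3 log2 CPM that moved the same way in all eyes. A second held the 10 most abundant called genes with an absolute log2 fold change over 1 in each direction. To these came leading members of each gene list, members whose role is described, and the 21 genes listed for the study. The comparison, gene lists and rules were chosen with earlier results of these data known. Alternatives were another normalization, filter, covariate and set of libraries, equal depth, single flow cells, the eye as replicate block, subtraction of the retina share and leaving out each eye. Leaving out the RM04 OD fovea library, the RM03 OS periphery library or the 3 libraries over 2% retina share was chosen after seeing the data. Some genes are not reported here, and symbols carried by several entries are marked as uncertain.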

Additional observations from a re-analysis of the deposited data

Results flagged for a closer look

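In 272 sets of 4 libraries (1 gene or measure at 1 location) tested for a library standing apart from the other 3, 14 were flagged, and chance flags about 1 in 20. The retina share of the RM04 OD fovea library was 10.1%, and SAG was at 161 CPM in the same library. The RM03 OS periphery library was the highest of its location in MYOCD at 4.66 CPM, COL1A2 at 1591 CPM, TBX3 at 6.63 CPM and VEZF1 at 159 CPM, and the lowest in CRABP1 at 2.54 CPM. It was also the library with the least RPE identity transcript. At the periphery RM04 OD was highest in ID3 at 144.8 CPM, LEF1 at 20.3 CPM and ACAN at 0.0141 CPM, and RM03 OD in APOE at 2913 CPM. At the fovea RM03 OS was highest in SMTN at 109.4 CPM and NR2F1 at 32.3 CPM, and RM04 OS in CRABP1 at 0.774 CPM.

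The animals differed in the change from periphery to fovea for 4 genes by edgeR's test of animal by location. The change in RM03 minus that in RM04, on the log2 scale, was 4.62 for COCH, -4.80 for LRRTM3, 5.89 for TACR2 and 12.28 for LANCL1, and the last value rests on libraries listed at 0 and is no measure of size. Both eyes of 1 animal moved against both eyes of the other for TYR (0.28), COL1A1 (0.42) and C3 (-0.78), which were flagged by sign. None of them was called by the test of animal by location.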

How the results depend on the processing

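The number of genes that differed between fovea and periphery, 6911, lay between 4723 (without RM04 OS) and 7543 (nasal libraries included) over 20 alternatives, and each count was within 1.5 times the value reported. DESeq2 called 7542 genes, single flow cells of the fovea libraries 6503 (2 lanes) and 6659 (3 lanes), and the eye as replicate block 6355, of which 6240 were shared. The block changed no other call of a named gene than those of BMP4, SMTN, PRX and APOD, which were lost, and ABCA4, which was gained. RLE normalization moved the median log2 fold change by 0.02. Of 118 named genes called, 94 were called in the same direction under every alternative and 24 lost the call under at least 1. The animal by location count of 4 genes was 470 with DESeq2 and ranged from 0 to 37 when 1 eye was left out. Among named genes, 1 differed between fovea and perimacula, 2 with the nasal libraries included and 0 with the replicate block. The mean retina share of the periphery libraries, 2.05% by rod genes, was 9.12% by inner retinal genes, and the cause was not tested. Direction turned for 6 genes that were not called. Without the 3 libraries over 2% retina share RGS5 was at -0.091, TTR at 0.26 and COL1A1 at -0.053, and with the rod mean as covariate COL1A1 was at -0.027. Without the RM03 OS periphery library RLBP1 was at -0.19 and TYR at -0.039. When 1 eye was left out RLBP1 ranged from -0.088 to 0.68, TYR from -0.049 to 0.10 and C3 from -0.077 to 0.30. These causes were not tested. The 4 eyes of 2 animals limit the precision, and for genes near 0 CPM at 1 location, such as GREM1, OTX1, COL2A1 and ACAN, so does depth.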

Other observations

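The periphery also stood apart from the other locations. In RPE/choroid 6097 of 15789 genes differed between perimacula and periphery and 7038 between nasal location and periphery, in comparisons that share the periphery libraries with the one reported. Across 14810 genes measured in both tissues, log2 fold changes of fovea over periphery in RPE/choroid and in retina had a Pearson r of 0.31 and a Spearman rho of 0.35, against 0.13 and 0.13 for fovea over nasal location. These are descriptions across genes, which are not independent replicates, and the peripheral libraries of both tissues were sequenced on the same flow cell. The perimacula libraries were uneven in myelin transcripts. The 22 Schwann cell and myelin genes summed to 14049 CPM in RM03 OD, 1780 CPM in RM03 OS, 1962 CPM in RM04 OD and 4630.0 CPM in RM04 OS at the perimacula, and the RM03 OD library had the lowest RPE identity sum of that location, at 5523 CPM.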
